A study of Mus musculus with 8 samples.

Results

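The core autophagy machinery was examined as a group of 38 mouse genes. The genes were chosen by name for their place in the pathway, with earlier results of these data known. They were found among 39527 genes in a table of RNA levels, all 38 with values of 0 or above, and all 38 were among the 11483 genes that could be tested. The cells were group 2 innate lymphoid cells (ILC2s), tissue-resident lymphocytes that secrete type 2 cytokines, sorted from the epididymal visceral fat of male wild-type C57BL/6 mice. Mice 14 weeks old had received either a normal diet (4 libraries, N1 to N4) or a high-fat diet (4 libraries, H1 to H4) for 8 weeks, starting at 6 weeks of age. The diets are the only difference between the groups that the labels give, and the title of the series names LKB1 and mitochondria as its subject. No label ties a library to 1 animal or to a pool, so the p-values reflect only how these libraries vary, in part perhaps for technical reasons.

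Autophagy encloses part of the cytoplasm in a double membrane, the autophagosome, and delivers it to the lysosome for breakdown. The ULK1 kinase complex starts the process, the class III PI3-kinase complex marks the membrane with the lipid PI3P, and ubiquitin-like conjugation enzymes attach proteins of the LC3 and GABARAP family to it. Cargo receptors bind these proteins and so bring ubiquitin-tagged material into the autophagosome. LKB1 activates AMPK, a kinase that can act on the ULK1 complex. Much of this regulation acts on proteins, which RNA levels do not show.

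Between the diets, most of the machinery did not pass the test. One gene rose on the high-fat diet, Nbr1, a cargo receptor, from 8.22 ± 0.985 to 13.7 ± 2.46 FPKM (fragments per kilobase, scaled to library size; SD, n = 4 each). One fell, Atg3, the enzyme that passes LC3 to its lipid, from 98.8 ± 6.02 to 64.5 ± 8.07 FPKM. Sqstm1, which encodes the cargo receptor p62 and had the highest FPKM of the machinery, was lower in every high-fat library but missed the threshold. The test was limma on log2(FPKM + 1) over all 11483 genes, with Benjamini-Hochberg adjustment and a threshold of 0.05.

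The 2 called genes make up 5.26% of the machinery, where 2.86% of all tested genes were called, 0.975% of them as higher and 1.88% as lower. In 4 members, 10.5%, the values of the diets did not overlap, with Nbr1 and Ulk2 higher and Atg3 and Sqstm1 lower on the high-fat diet. Among all tested genes 11.1% did not overlap, 4.31% being higher and 6.76% lower, so the share in the machinery is near that background. An unadjusted p under 0.05 was reached by 7 members (18.4%) and by 18.1% of all tested genes. The log2 differences ran from -0.74 to 0.67 with a median of -0.05, beside -0.02 for all tested genes, and 16 were above 0 and 22 below. The majority below 0 depended on scaling and on 1 library: 22 members were above 0 after quantile normalization, 25 when reads were tested with voom, and 24 without H2. The voom setting itself moved the median of all tested genes to 0.14, and the median of the machinery to 0.10. Voom called 1505 of all tested genes, 1117 higher and 388 lower.

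**Figure D1:**
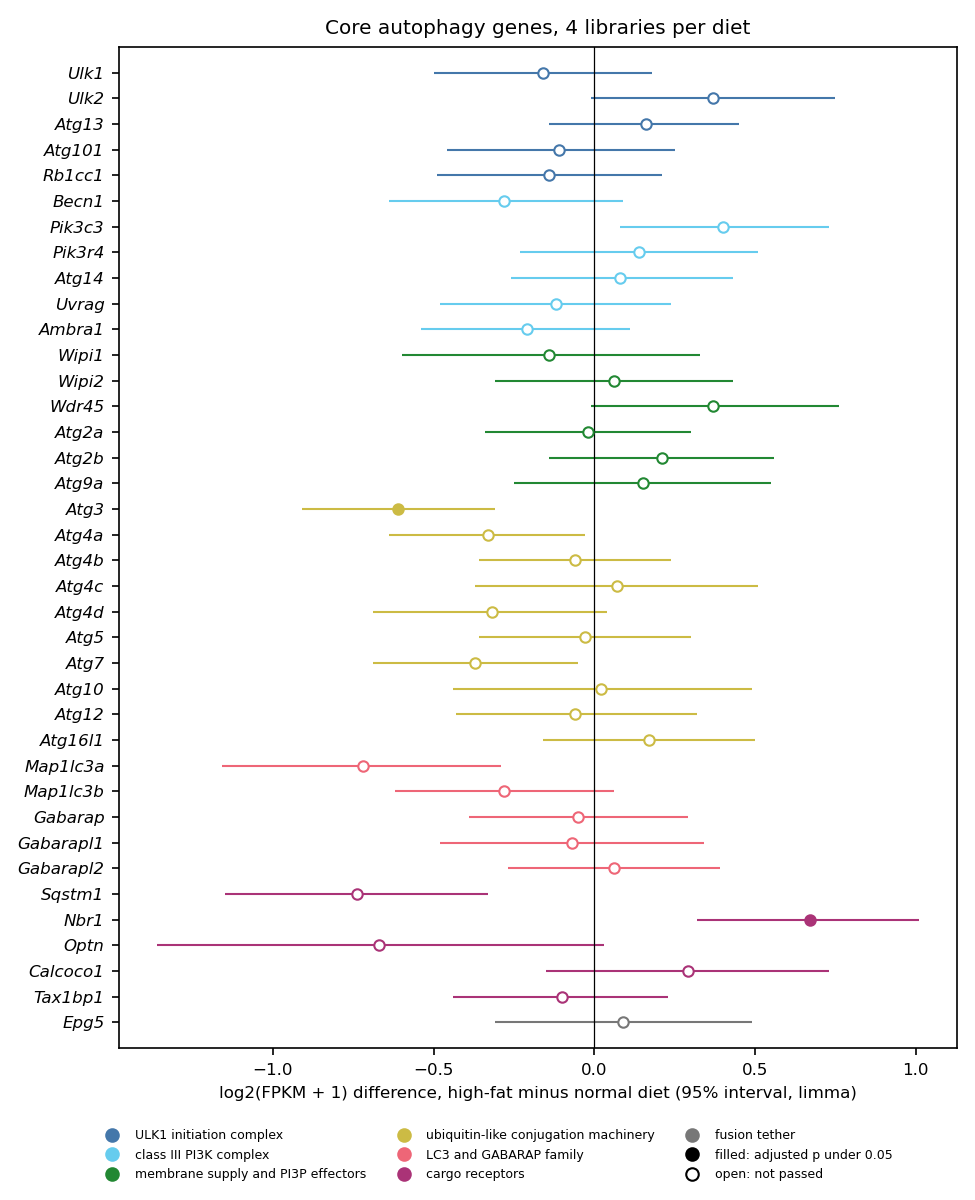
Difference in log2(FPKM + 1) between the high-fat and the normal diet for each of the 38 genes, colored by role, with the 95% interval from limma (4 libraries per diet). Filled points, Nbr1 at 0.67 and Atg3 at -0.61, passed an adjusted p of 0.05, and the 36 open points did not.

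The reads recovered from the deposited values numbered 9005363 (H2) to 15752815 (H4) per library. H2 was the lowest of the 8 libraries for 16 members (42.1%), against 27.3% of all tested genes. The summed level of 14 ILC2 markers was lower on the high-fat diet, 6801 to 7777 against 8249 to 10423 FPKM, and 3 of the 14 were called lower and 0 higher. Single markers differed: Gata3 lay at 835.2 to 1145 FPKM on the normal and 565.7 to 714.5 on the high-fat diet, Il7r at 149.9 to 199.5 and 203.3 to 271.6, and Thy1 at 14.5 to 21.3 and 15.7 to 33.5. Other lists that did not overlap were endothelial, macrophage and monocyte, and dendritic cell. The endothelial sum was 18.6 to 24.9 FPKM on the normal and 37.3 to 147.8 on the high-fat diet. Of 5 tested endothelial genes 3 were called higher. The macrophage and monocyte sum was 8.33 to 10.1 and 12.1 to 13.2, with 0 of 3 tested genes called. The dendritic cell sum was 72.9 to 112.2 and 29.9 to 44.6, with 2 of 2 called lower. The T cell sum overlapped, at 795.8 to 1068 and 852.2 to 1632 FPKM. So did the granulocyte and mast cell sum, at 769.5 to 1426 and 429.5 to 2106. The B cell sum overlapped too, at 114.9 to 367.8 and 100.9 to 245.3. Defining genes of other cells were in part near 0 and in part not. Of endothelial genes, Cdh5 reached at most 0.416 FPKM, but Pecam1 lay at 10.6 to 25.1 and Fabp4 at 9.68 to 104.0 on the high-fat diet, against 11.3 to 16.1 and 0.788 to 1.81 on the normal diet. Of macrophage genes, C1qa lay at 0.0 to 0.0816 FPKM on the normal and 0.0811 to 0.365 on the high-fat diet. Lyz2 lay at 0.561 to 3.04 and 1.37 to 4.48. Of adipocyte genes, Adipoq lay at 0.0 to 0.563 and 0.0 to 0.176, and Plin1 at 0.0 to 0.0444 and 0.0744 to 0.881. The adipocyte sum overlapped, at 2.11 to 4.37 and 2.8 to 7.77. So did the fibroblast and mesothelial cell sum, at 3.03 to 11.5 and 6.7 to 38.7. Col1a1 of fibroblasts lay at 0.0828 to 0.346 and 0.252 to 3.32. Adgre1 of macrophages went against its list, at 0.984 to 1.8 FPKM on the normal and 0.0952 to 0.797 on the high-fat diet. Csf1r of macrophages lay at 0.0633 to 0.344 and 0.268 to 1.02. Of T cell genes, Cd3e lay at 2.49 to 11.6 FPKM on the normal and 7.33 to 15.1 on the high-fat diet, and Trac at 80.1 to 145.3 and 70.4 to 239.2. The part of these other cells in the results below was not tested, and in bulk RNA fewer cells of a type cannot be told apart from less RNA per cell.

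The initiation complex comprises the kinases Ulk1 and Ulk2 and their partners Atg13, Atg101 and Rb1cc1 (FIP200). None of the 5 passed or reached an unadjusted p under 0.05 in limma. Voom called Ulk2 and Atg13 higher, in a setting that called 1117 of all 11483 tested genes higher. Ulk2 (chromosome 11, 61775649 to 61855073 in mm10, minus strand) was measured at 2.03, 1.99, 2.02 and 1.98 FPKM in N1 to N4 and at 3.46, 2.50, 2.85 and 2.77 FPKM in H1 to H4. All high-fat libraries were above all normal-diet libraries, and the normal-diet values were very close to each other. The log2 difference of Ulk2 was 0.37 (standard error 0.18; limma, adjusted p = 0.286), on 81 to 148 reads per library. Of 17 other settings in which Ulk2 was tested, only voom on recovered reads passed (adjusted p = 0.0489). Its partner kinase Ulk1 averaged 5.31 ± 0.693 and 4.64 ± 0.558 FPKM on the normal and the high-fat diet (SD, n = 4). The ratio of Ulk2 to Ulk1 within a library was 0.332 to 0.425 on the normal and 0.559 to 0.694 on the high-fat diet. Once a factor that recurs every 10 rows of the deposited table was divided out, these ranges overlapped, at 0.311 to 0.531 and 0.518 to 0.680. The ratio has no test, and Ulk2 was singled out because its diets did not overlap. Atg101, which stabilizes Atg13, was the most expressed of the complex by FPKM, at 73.6 ± 6.67 and 69.3 ± 15.5, while Atg13 and Rb1cc1 stayed between 10.2 and 17.1 FPKM in all libraries.

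In the class III PI3-kinase complex, none of 6 genes passed and none was without overlap. Pik3c3 alone reached an unadjusted p under 0.05 in limma. It was also the only 1 called by voom, a setting that called 1117 of all 11483 tested genes higher. Pik3c3 encodes the lipid kinase VPS34 and was singled out after its values were seen. It was measured at 9.50, 10.6, 9.75 and 12.7 FPKM in N1 to N4 and at 14.3, 12.4, 13.9 and 17.1 FPKM in H1 to H4. Only N4 and H2 crossed, N4 lying just above H2. The log2 difference of Pik3c3 was 0.40 (standard error 0.15; limma, adjusted p = 0.174), and 1 of 18 other settings, voom, passed (adjusted p = 0.0174). Becn1, the scaffold of the complex, averaged 81.8 ± 16.5 FPKM on the normal and 66.7 ± 8.33 on the high-fat diet, with overlap. The ratio of Pik3c3 to Becn1 did not overlap, at 0.134 ± 0.0313 on the normal and 0.216 ± 0.00855 on the high-fat diet (SD, n = 4), nor did it with the recurring factor divided out (0.142 ± 0.0251 and 0.204 ± 0.0103). The pair was chosen after its values were seen and the ratio has no test. Becn1 shares 3104 exonic bases with Cntd1 on the opposite strand, and Cntd1 held 106 reads in all libraries against 14008 for Becn1. The library kit does not mark the strand, so these counts cannot show from which gene the shared reads came. Means of the kinase's regulatory subunit Pik3r4, of Atg14 and Uvrag, which define its 2 forms, and of Ambra1 ran from 6.54 to 33.0 FPKM on the normal diet, and each overlapped between the diets.

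**Figure D2:**
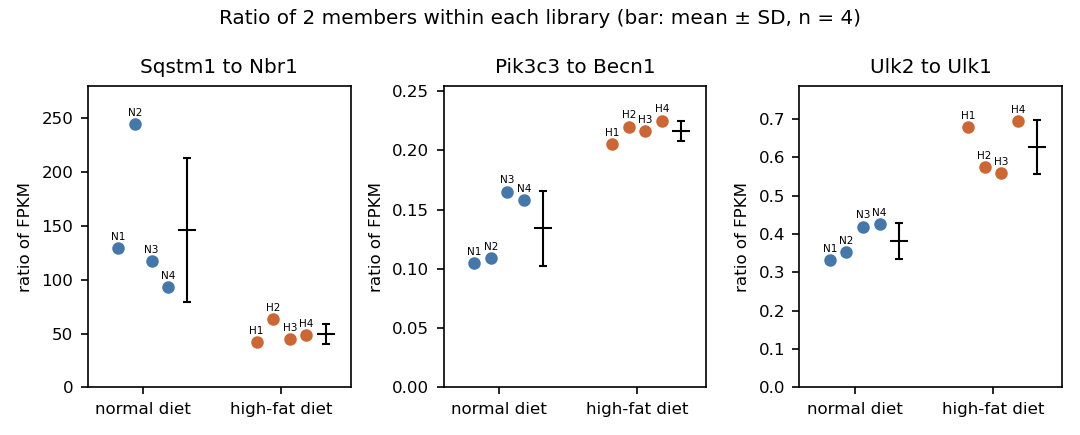
Ratio of FPKM of 2 members within each library, with mean ± SD (n = 4) beside the points. Sqstm1 to Nbr1 lay at 93.3 or more on the normal diet and at 63.5 or less on the high-fat diet. The other 2 ratios were higher in every high-fat library as deposited. None of the ratios has a test.

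A further 6 genes supply membrane or bind PI3P, and none passed, reached an unadjusted p under 0.05 or was without overlap. Voom called 0 of them. The PI3P-binding proteins Wipi1, Wipi2 and Wdr45 averaged 3.54 ± 1.52, 37.2 ± 5.36 and 6.09 ± 1.18 FPKM on the normal diet and 3.0 ± 0.486, 39.2 ± 8.26 and 8.21 ± 1.85 on the high-fat diet. The lipid transfer proteins Atg2a and Atg2b and the membrane protein Atg9a lay between 2.18 and 17.5 FPKM in all libraries. Atg2b shares 383 exonic bases (2.8%) with Gskip on the opposite strand, which held 4096 reads against 4362. Atg9a shares 46 (0.8%) with Ankzf1 on the opposite strand, which held 1326 reads against 1143. The 6 log2 differences ran from -0.14 to 0.37, with 4 above 0.

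Conjugation enzymes held 1 called gene of 10, Atg3, an E2-like enzyme (chromosome 16, 45158785 to 45188538 in mm10, plus strand, 12 merged exons). Atg3 was measured at 96.8, 107.5, 97.1 and 93.7 FPKM in N1 to N4 and at 62.5, 68.0, 54.4 and 73.3 FPKM in H1 to H4. The highest high-fat library lay below the lowest normal-diet library. Its log2 difference was -0.61 (standard error 0.14, 95% interval -0.91 to -0.31; limma, adjusted p = 0.0292), on 854 to 1707 reads per library. The difference kept its direction in 18 other settings, from -0.68 to -0.40, but passed in only 7 of them, and leaving out H1, H3, H4 or any normal-diet library ended the call (adjusted p up to 0.128 over the 18). No annotated gene shared its exons, and no near-identical copy was found.

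Atg3 acts with Atg7, the E1-like enzyme for both conjugation systems, and the products of the second system, Atg12, Atg5 and Atg16l1, direct where LC3 is attached. Atg7 averaged 20.1 ± 2.77 FPKM on the normal and 15.2 ± 1.42 on the high-fat diet, and Atg12, Atg5 and Atg16l1 averaged 108.1 ± 10.3, 29.7 ± 2.76 and 17.0 ± 3.26 FPKM on the normal and 105.7 ± 23.3, 29.2 ± 4.73 and 19.0 ± 1.51 on the high-fat diet. None of these 4 passed, and their values overlapped. The ratios of Atg3 to Atg7, to Atg12 and to Atg5 also overlapped between the diets. The LC3 proteases Atg4a, Atg4b, Atg4c and Atg4d and the E2-like enzyme Atg10, which serves Atg12, did not pass either. Of these 5, Atg4b was highest by FPKM, at 34.0 to 43.9 over all libraries, and Atg4c lowest, at 1.1 to 2.21. A near-identical annotated copy of Atg4a, Atg4a-ps, held 62 reads against 7284. Atg4d shares 1405 exonic bases (19.3%) with Kri1 on the opposite strand, which held 1344 reads against 4103. Such counts cannot show from which gene the reads in shared sequence came.

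The sequence before the start of Atg3 is shown because it was the only one among the members with 2 copies of CACGTG, the E-box form that factors of the TFEB family can bind. The search took the 250 bases before each RefSeq start (GRCm38.p6), on both strands, and matched 31 of the 38 members, with 35 windows. CACGTG lay in 8.6% of the members' windows, those of Atg3, Atg5 and Atg7, and in 6.0% of 32851 windows of all genes. TGACNNNGC, the core of the antioxidant response element, lay in 8.6% (Atg13, Tax1bp1 and Ulk2) against 10.2%, and GTAAACA, a forkhead motif, in 0.0% against 3.2%. No searched member held more than 1 kind of these motifs, and a match describes letters, not binding. For the 3 genes the stretch with the motif in capitals reads 5′ to 3′ on the plus strand as follows. Exons of the divergent neighbor Slc35a5 were left out of that for Atg3, and the Atg7 stretch precedes a RefSeq start that lies inside the gene.
Atg3 (chr16:45158707-45158784): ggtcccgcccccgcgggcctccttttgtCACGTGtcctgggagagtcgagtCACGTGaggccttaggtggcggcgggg
Atg5 (chr10:44268285-44268338): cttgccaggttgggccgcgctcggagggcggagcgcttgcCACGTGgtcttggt
Atg7 (chr6:114670924-114671009): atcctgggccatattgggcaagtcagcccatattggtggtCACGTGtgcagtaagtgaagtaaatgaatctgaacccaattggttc
The Atg3 copies lie 94 to 89 and 71 to 66 bases before the RefSeq start, and the copy of Atg5 lies 14 to 9 bases before it. Of these 3 genes only Atg3 was called.

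The LC3 and GABARAP family, the proteins that are lipidated onto the membrane, had no called member among 5, with 1 at an unadjusted p under 0.05 in limma (Map1lc3a) and 0 called by voom. Map1lc3b, which encodes LC3B, was measured at 249.3, 277.9, 213.0 and 275.5 FPKM in N1 to N4 and at 197.9, 167.4, 228.2 and 248.9 FPKM in H1 to H4. Its ranges overlapped, and the log2 difference was -0.28 (standard error 0.16; limma, adjusted p = 0.384). Gabarap was measured at 219.2, 209.7, 207.4 and 216.0 FPKM in N1 to N4 and at 257.2, 166.4, 178.7 and 236.4 FPKM in H1 to H4. The high-fat libraries of Gabarap lay on both sides of the normal-diet ones, and its coefficient of variation was 2.6% on the normal and 21.0% on the high-fat diet. Gabarapl2 was measured at 131.8, 165.9, 132.3 and 179.8 FPKM in N1 to N4 and at 169.3, 136.7, 148.7 and 177.5 FPKM in H1 to H4, again with overlap. The log2 differences of Gabarap and Gabarapl2 were -0.05 and 0.06, each with a standard error of 0.16, and both changed sign in some other settings.

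Map1lc3a, which encodes LC3A and was singled out after its values were seen, was lower than Map1lc3b by FPKM. It was measured at 29.6, 24.4, 34.0 and 18.8 FPKM in N1 to N4 and at 14.6, 19.9, 11.0 and 17.4 FPKM in H1 to H4. H2 was above N4 and every other high-fat library was below all normal-diet libraries. The log2 difference of Map1lc3a was -0.72 (standard error 0.20; limma, adjusted p = 0.0712), and 3 of 18 other settings passed, those with a filter at 5 FPKM, without H2 and without N4. Gabarapl1 averaged 27.3 ± 4.42 and 26.3 ± 6.41 FPKM. Within the family's summed FPKM, the share of Map1lc3b was 37.6% ± 1.81 and 34.0% ± 3.69 and that of Map1lc3a 4.04% ± 1.29 and 2.60% ± 0.919 on the normal and the high-fat diet (SD, n = 4), and all 5 shares overlapped.

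**Figure D3:**
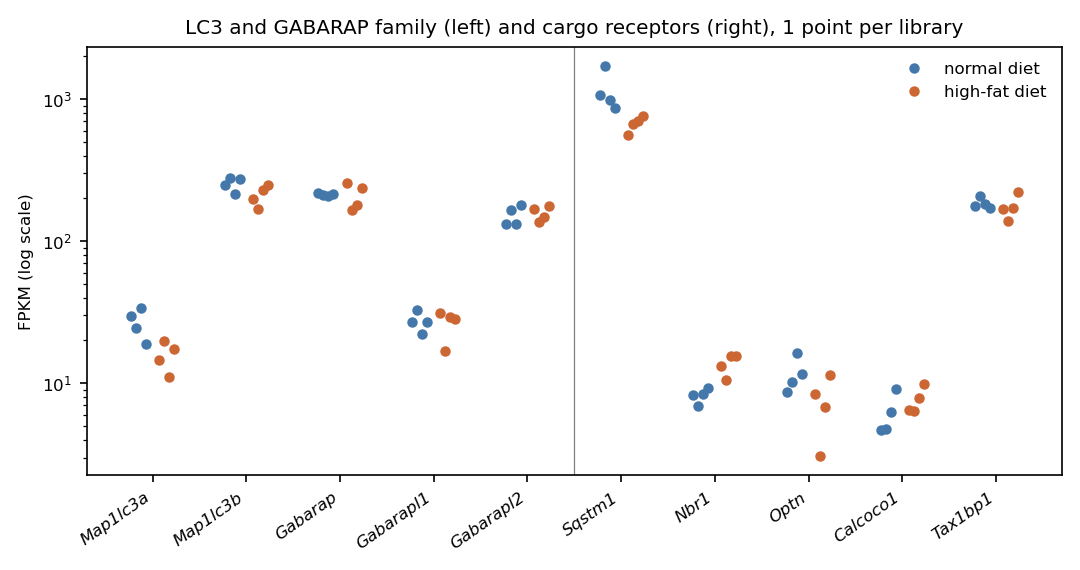
FPKM on a log scale in each library for the 5 LC3 and GABARAP genes and the 5 cargo receptors, blue for the normal and orange for the high-fat diet. Sqstm1 lies above all others in every library, and the diets part only for Sqstm1 and Nbr1.

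Among 5 cargo receptors, Nbr1 rose and Sqstm1, its structural relative, was lower without passing. Nbr1 (chromosome 11, 101552149 to 101581951 in mm10, plus strand) was measured at 8.25, 6.93, 8.37 and 9.33 FPKM in N1 to N4 and at 13.2, 10.5, 15.6 and 15.6 FPKM in H1 to H4. All high-fat libraries were above all normal-diet libraries, with H2 the lowest of them. The log2 difference of Nbr1 was 0.67 (standard error 0.16, 95% interval 0.32 to 1.01; limma, adjusted p = 0.0414), on 299 to 876 reads per library. It kept its direction in 18 other settings, from 0.60 to 0.86, and passed in 9 of them. Leaving out H1, H3, H4, N1, N2 or N3 ended the call, and the adjusted p over the 18 settings ran from 0.00315 to 0.137.

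Sqstm1 (chromosome 11, 50199366 to 50210827 in mm10, minus strand) was measured at 1068, 1694, 981.7 and 871.0 FPKM in N1 to N4 and at 557.6, 664.4, 704.4 and 758.6 FPKM in H1 to H4. The diets did not overlap, and N2 stood well above the other normal-diet libraries. Its log2 difference was -0.74 (standard error 0.19, 95% interval -1.15 to -0.33; limma, adjusted p = 0.0534). Of 18 other settings 5 passed, and the difference ran from -0.86 to -0.53 over them. Sqstm1 shares 580 exonic bases with Mrnip on the opposite strand, which held 328 reads against 395366. Without strand marks, these counts cannot show from which gene the shared reads came.

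The ratio of Sqstm1 to Nbr1 was 129.5, 244.4, 117.3 and 93.3 in N1 to N4 and 42.2, 63.5, 45.1 and 48.6 in H1 to H4. The diets did not overlap, and they did not with the recurring factor divided out (140.7 ± 54.6 and 52.6 ± 9.79; SD, n = 4). This ratio has no test of its own, since both genes were picked by their values. Of the summed FPKM of the 5 receptors, Sqstm1 made up 83.9% ± 3.06 on the normal and 76.8% ± 3.15 on the high-fat diet, Nbr1 0.645% ± 0.212 and 1.57% ± 0.222, and Tax1bp1 14.1% ± 2.31 and 19.9% ± 2.58, none with overlap. Since Sqstm1 is most of this sum, a lower Sqstm1 raises the other shares by itself. Tax1bp1, another ubiquitin-binding receptor, was measured at 177.5, 208.5, 183.9 and 172.1 FPKM in N1 to N4 and at 167.9, 137.7, 171.0 and 221.1 FPKM in H1 to H4. Its levels overlapped and its log2 difference was -0.10 (standard error 0.16; limma, adjusted p = 0.795), with 4 of 18 other settings above 0. Optn, a receptor in mitophagy, averaged 11.7 ± 3.23 and 7.43 ± 3.49 FPKM, and Calcoco1, a receptor for the endoplasmic reticulum, 6.19 ± 2.07 and 7.65 ± 1.67, both with overlap. Epg5, which tethers autophagosomes to lysosomes, lay at 3.08 to 5.54 FPKM on the normal and 3.75 to 5.46 on the high-fat diet.

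**Figure D4:**
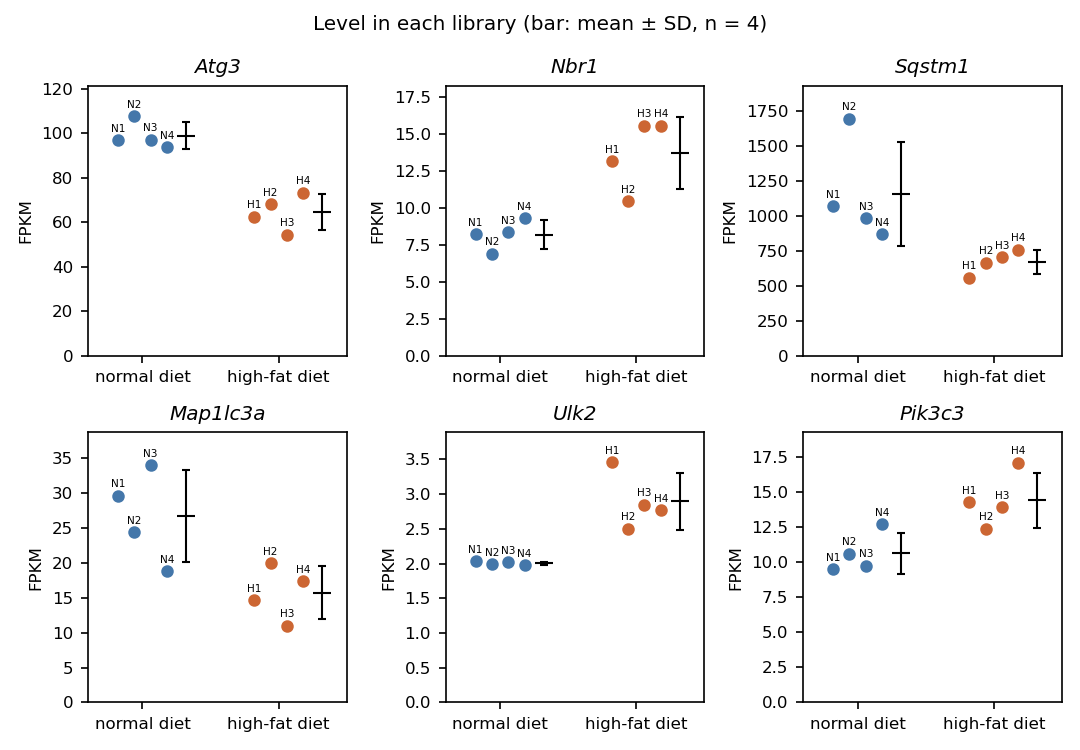
FPKM in each library for 6 members, with mean ± SD (n = 4) beside the points and axes starting at 0. Atg3, Nbr1, Sqstm1 and Ulk2 did not overlap between the diets, while Map1lc3a and Pik3c3 overlapped through 1 library per diet.

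**Figure D5:**
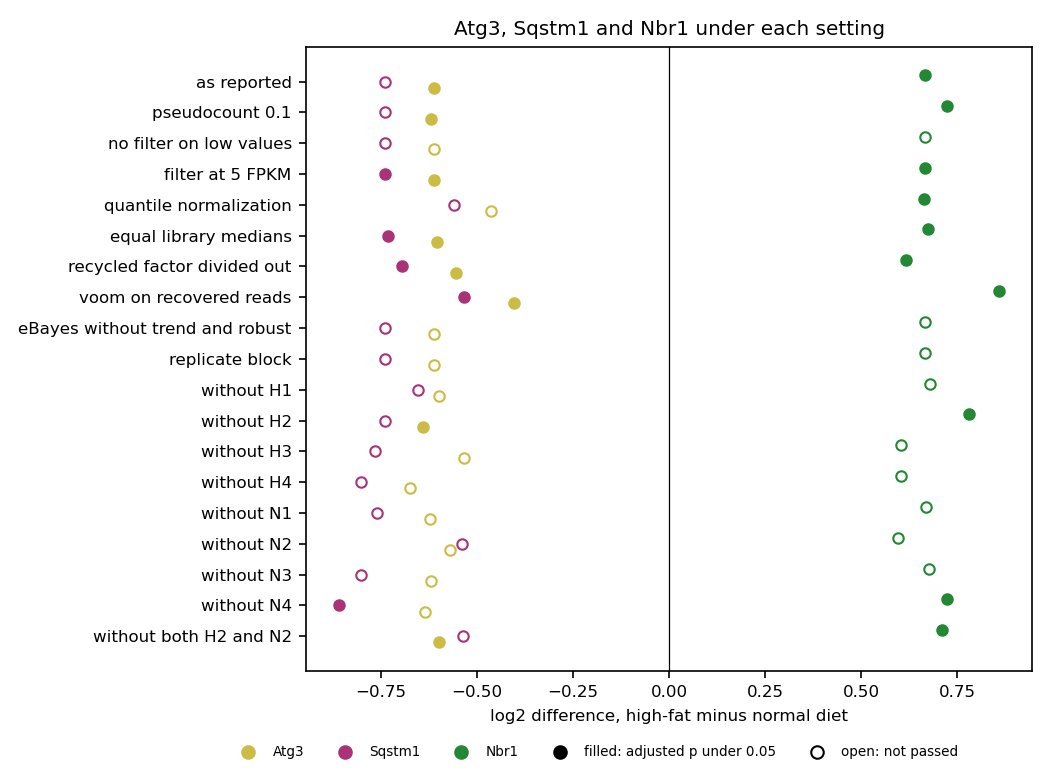
Log2 difference of Atg3, Sqstm1 and Nbr1 as reported and under 18 other settings, filled where the adjusted p was under 0.05. Each gene stays on its side of 0 throughout, and Atg3 passed in 7, Sqstm1 in 5 and Nbr1 in 9 of the 18.

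Levels within the machinery spanned Sqstm1 at 1154 ± 369 FPKM to Atg4c at 1.90 ± 0.534 on the normal diet (SD, n = 4). By the mean over libraries, 6 members were above 100 FPKM, 19 from 10 to 100 and 13 under 10. The order between genes depends on the gene length used: with GENCODE M21 exonic bases in place of the length implied by the deposited values, Sqstm1 stayed first, but Map1lc3b went from rank 2 to rank 5 and Atg12 from rank 6 to rank 23. The length implied for Atg12 was 492 bases against 7711 annotated. The spread between libraries was moderate, with a median coefficient of variation of 14.9% on the normal and 14.5% on the high-fat diet, against 19.6% and 19.2% for all tested genes.

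Genes around the machinery were given by 4 further lists of 77 tested genes, chosen with earlier results of these data known. Of the 77, 1 rose and 5 fell (7.79%), where 2.86% of all tested genes were called, 0.975% as higher and 1.88% as lower. Among 22 other autophagy regulators, Tollip, an adaptor that binds ubiquitin and LC3, fell from 391.9 ± 59.0 to 170.8 ± 12.4 FPKM (log2 difference -1.19, limma adjusted p = 0.00155). Trp53inp1, a p53 target that binds LC3, rose from 11.7 ± 1.08 to 25.0 ± 6.37 FPKM (1.01, limma adjusted p = 0.00844). Both passed in all 18 other settings. Among 18 genes of autophagosome-lysosome fusion, limma called 0, with 3 at an unadjusted p under 0.05, and voom called 1 higher and 1 lower. The most expressed of these, the GTPase Rab7 and the SNARE Vamp8, averaged 224.0 ± 44.7 and 135.9 ± 16.0 FPKM on the normal and 186.8 ± 46.6 and 145.3 ± 47.7 on the high-fat diet.

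Of 16 tested transcriptional regulators of autophagy genes, 1 passed: Foxo1, a forkhead factor, fell from 15.2 ± 1.67 to 8.21 ± 1.19 FPKM (log2 difference -0.82, limma adjusted p = 0.0104). Sqstm1 is also a target of NRF2, the antioxidant factor. Of 21 other NRF2 targets 3 fell and none rose (14.3%), where 2.86% of all tested genes were called, 1.88% as lower. Of the 21 log2 differences 7 were above 0 and 14 below, beside 5496 above and 5973 below among all tested genes. Srxn1, which repairs peroxiredoxins, fell from 32.2 ± 4.84 to 12.7 ± 2.26 FPKM (-1.28, limma adjusted p = 0.00187). Mafg, a partner of NRF2, fell from 71.3 ± 9.43 to 39.9 ± 5.12 FPKM (-0.82, limma adjusted p = 0.0104). G6pdx, the first enzyme of the pentose phosphate pathway, fell from 28.2 ± 3.71 to 18.3 ± 0.738 FPKM (-0.59, limma adjusted p = 0.0407) and passed in 8 of 18 other settings, while Foxo1, Srxn1 and Mafg passed in all 18. The NRF2 targets had a median log2 difference of -0.17, beside -0.02 for all tested genes. The 18 fusion genes, with 0 called, had the same median of -0.17, and neither median was tested. Whether NRF2 has a part in the lower Sqstm1 was not tested. With voom, 1 NRF2 target was called higher and 3 lower. Of the transcriptional regulators voom called 3 higher and 1 lower, and of the other autophagy regulators 3 higher and 2 lower. Over all 11483 tested genes, voom called 1117 higher and 388 lower.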

How the data were processed

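RNA of sorted ILC2s was read in 8 libraries. Per the labels' protocols, cDNA was full-length (SMART-Seq HT) and the library kit (TruePrep, transposase) does not mark the strand. HISAT2, Cufflinks and mm10 come from the submitters' processing notes, and their versions were not given in the sources used here. Per the file headers, values are FPKM. Because 14605 genes hold values below 0, the deposited values were handled as a score of uncertain scale, and those genes were left out. A factor of 0.863 to 1.185 recurs every 10 rows in the deposited values. It was kept in the main test and divided out in an alternative. Whole reads were recovered for 24107 of 24107 genes above 0 (relative tolerance 1e-06), and give the depth.

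Genes at 1 FPKM or more in at least 4 libraries were tested with limma 3.58.1 (R 4.3.3) on log2(FPKM + 1), which understates the change of low genes, with diet only, trend and robust eBayes, two-sided, Benjamini-Hochberg over 11483 genes. The code was tested on simulated data. Figures used matplotlib 3.10.9. Annotation was GENCODE M21, promoters RefSeq, and copies were sought with blastn 2.17.0 (95% identity over 150 bases). Values in every library were given for members that passed, for those without overlap between the diets, and for the 3 most expressed LC3 and GABARAP genes and cargo receptors. In the other lists, genes that passed or else the 2 most expressed were named. Members and lists were chosen with earlier results of these data known. The alternatives were another pseudocount, filters, scalings, voom on recovered reads, eBayes options, a replicate block, each library left out and, added after seeing the data, H2 and N2 left out together.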

Additional observations from a re-analysis of the deposited data

Results flagged for a closer look

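In each diet group the values of the members and of the 8 other pathway genes given by name were checked for a library set apart from the other 3, by Dixon's test of its gap over the range of the group, at the 95% level. Of 92 groups looked at, 2 were beyond it, where chance gives about 5%. Pik3r4 was at 6.22 FPKM in H2 and at 8.89 to 9.21 FPKM in the other high-fat libraries. Atg4c was at 1.1 FPKM in N2 and at 2.13 to 2.19 FPKM in the other normal-diet libraries. Neither gene passed the test between the diets.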

How the results depend on the processing

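Members called and calls over all tested genes were 2 and 328 as reported. They were 0 and 130 with no filter on low values, 4 and 472 with a filter at 5 FPKM, 1 and 430 with quantile normalization, 3 and 477 at equal library medians, 3 and 571 with the factor divided out, 6 and 1505 with voom, and 0 and 221 without the trend and robust options. With 1 library left out they were 0 to 3 and 129 to 536: members were called only without H2 or without N4, which gave 3 each. Voom moved the members' median to 0.10, and without 1 library it ran from -0.09 to 0.03. With the replicate block 0 members and 191 genes were called. Same-numbered libraries correlated at -0.255 to 0.078 in their deviations, and the other pairs at -0.201 to 0.222. This gave no sign that the numbers pair the libraries, but so few pairs cannot exclude it. Without both H2 and N2, 2 members and 458 genes were called.

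Of the 38 members, 21 kept their sign in every other setting that tested them (18, or 17 for Ulk2, Atg2b and Atg9a, which the 5 FPKM filter left out) and 17 did not. Gabarap came to 0.123 with quantile normalization, 0.132 with voom and 0.049 without H2 and N2. Tax1bp1 came to 0.062, 0.002 and 0.058 in the same settings. Vamp8 came to -0.027 with the factor divided out and Rab7 to 0.016 without H2 and N2. With 1 library left out, Gabarap ran from -0.152 to 0.056, Tax1bp1 from -0.225 to 0.001, Gabarapl2 from -0.007 to 0.141 and Vamp8 from -0.143 to 0.255. The cause of these shifts was not tested. Low members rest on few reads: Atg4c had 41 to 79 per library.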
